A study of Mus musculus with 13 samples.

Results

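The regions described here are those whose nearest gene, as the authors' deposited tables name it, belongs to 7 families of developmental transcription factors: Pax, Lhx, Tbx, Nkx, Irx, Dlx and the Six-family genes. The tables compare knee cartilage of wild-type (WT) and mutant (MUT) mice after joint surgery (DMM) or a sham operation. Members were picked out by gene name, with Pax5 left out, and the choice was made with earlier results of these data known. They make up 79 of 43378 regions in the comparison of WT DMM with WT sham, 163 of 65969 in MUT DMM against WT DMM and 181 of 72486 in MUT DMM against WT sham. Of the 61 genes of these families in the RefSeq table, 56 were the nearest gene of at least 1 region, in 32, 48 and 47 genes of the 3 tables in that order. Dlx1, Dlx4, Nkx1-2, Nkx2-6 and Tbx6 had none.

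The families build body parts in the embryo. Pax proteins bind DNA through a paired domain, Tbx proteins through a T-box, and Lhx, Nkx, Irx, Dlx and Six-family proteins through homeodomains, with LIM domains in Lhx proteins that recruit cofactors. Several act in the limb and skeleton: Nkx3-2 and Pax1 promote early chondrogenesis, Tbx5 and Tbx4 start the fore- and hindlimb, and Dlx5 drives chondrocyte and bone cell maturation. The mark measured, 5-hydroxymethylcytosine (5hmC), arises when TET enzymes oxidise 5-methylcytosine. It is a mark on DNA and gives no level of expression, and the nearest gene of a region need not be the gene it acts on.

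The study mapped 5hmC in knee cartilage of male mice of the strain B6;129S4, 6 weeks after surgery. WT mice are TET1+/+ and MUT mice carry the genotype label TET-/-, with the deleted part not given in the sources used here. Sham knees were opened only, on the leg opposite to the operated one. In DMM, destabilisation of the medial meniscus, the labels say that the medial meniscus was taken out, and the operation leads to osteoarthritis. The mice were 3 to 4 months old by the design text and 4 to 6 months old by the treatment protocol. Of the 13 samples listed, 3 of MUT sham and 1 background control were not analysed here, so no background level is given and genotype without surgery was not compared.

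Levels are the authors' normalized counts per region and can be compared within a table only. The tables hold 3 WT sham, 3 WT DMM and 2 distinct MUT DMM libraries, since 2 of the 3 MUT DMM entries were identical and count once here. Replicates are biological by the design text, which ties no library to an animal. The protocol puts each control on the opposite leg, so WT sham and WT DMM knees may come from the same mice, while the design text calls the sham controls age-matched. Every test here treats these groups as independent, and every error and every p from limma reflects how far these libraries spread, which may be technical. One WT DMM library, the first listed, was almost without reads: its member regions held 9 in the comparison with sham and 71 in that with MUT DMM, where the other WT DMM libraries held 794 to 4309. The 2 MUT DMM libraries held 15604 and 1053 reads in the member regions of MUT DMM against WT DMM, and sham libraries held 1135 to 13172 across their tables. Regions count as changed at an adjusted p under 0.05 in the deposited tables, and libraries are said to separate where every library of one group lay beyond every library of the other.

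Promoter windows give the closest link between a region and a gene. A member region overlapped the window before a RefSeq start of a member gene in 12 cases. The 4 sequences below are the 250 bases before the outermost start of Nkx3-2, Six2, Six5 and Pax2 (RefSeq, GRCm38.p6, 5′ to 3′ on the gene's strand). They are shown because the first 3 lay under regions with more 5hmC in MUT DMM, and the last under a region with less. Capitals mark CCGG, the site that the MspI-based assay reads.
Nkx3-2 (chr5:41764221-41764470, minus strand): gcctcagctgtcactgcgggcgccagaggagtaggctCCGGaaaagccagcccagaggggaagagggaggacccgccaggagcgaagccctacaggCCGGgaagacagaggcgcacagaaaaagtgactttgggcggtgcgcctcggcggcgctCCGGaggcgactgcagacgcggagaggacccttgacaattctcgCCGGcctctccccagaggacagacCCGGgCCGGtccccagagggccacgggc
Six2 (chr17:85688255-85688504, minus strand): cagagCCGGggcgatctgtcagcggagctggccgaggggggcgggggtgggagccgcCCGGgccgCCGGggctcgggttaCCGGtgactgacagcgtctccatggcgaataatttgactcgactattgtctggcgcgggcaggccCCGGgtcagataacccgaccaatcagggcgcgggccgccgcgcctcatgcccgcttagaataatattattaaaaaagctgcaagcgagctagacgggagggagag
Six5 (chr7:19094294-19094543, plus strand): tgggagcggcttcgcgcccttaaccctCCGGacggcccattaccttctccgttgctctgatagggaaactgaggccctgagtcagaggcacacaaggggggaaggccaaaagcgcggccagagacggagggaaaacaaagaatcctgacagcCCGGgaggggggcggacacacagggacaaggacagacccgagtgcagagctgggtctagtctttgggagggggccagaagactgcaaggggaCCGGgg
Pax2 (chr19:44746351-44746600, plus strand): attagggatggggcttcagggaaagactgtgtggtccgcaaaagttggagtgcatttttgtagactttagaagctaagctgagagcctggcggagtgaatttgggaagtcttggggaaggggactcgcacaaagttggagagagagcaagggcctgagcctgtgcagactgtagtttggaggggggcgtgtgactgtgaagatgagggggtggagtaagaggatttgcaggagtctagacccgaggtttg

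The Nkx3-2 window held 6 CCGG sites, that of Six2 held 5 and that of Six5 held 3, while the Pax2 window held none. Where these windows overlapped a region higher in MUT DMM than in WT DMM, the overlap held 2, 1 and 3 sites for Nkx3-2, Six2 and Six5. Among all 32851 windows of this length, 47.1% held at least 1 CCGG, read on both strands since the motif is its own reverse complement. Among the 54 windows of member genes 68.5% did. A window without CCGG says only that these letters are not in it.

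In wild-type knees after DMM, most changed member regions had more 5hmC than sham, at low levels, and the few with less were at well-marked sites. Higher regions numbered 67 of 79, in 27 genes, against 93.2% of all listed regions. Lower regions numbered 12 of 79, in 10 genes, against 6.53% of all. By family, higher and lower regions numbered 22 and 1 in Irx, 21 and 1 in Tbx, 9 and 3 in Pax, 5 and 2 in Lhx, 5 and 3 among Six-family genes, 3 and 2 in Nkx, and 2 and 0 in Dlx. Median levels in the higher regions were 7.33 (DMM) and 2.57 (sham) normalized counts, those in the lower regions 23.8 and 48.0.

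**Figure D1:**
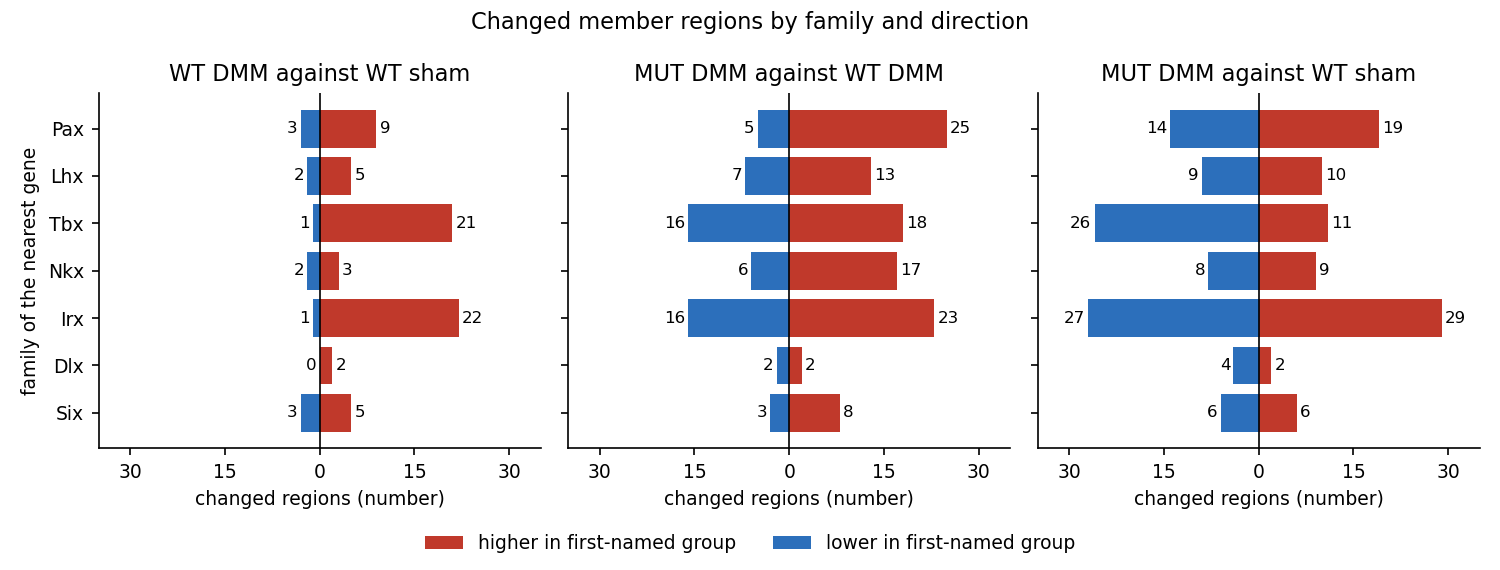
Changed regions (authors' adjusted p under 0.05) nearest to a gene of each family, as numbers higher (red, right) or lower (blue, left) in the first-named group of each comparison. Irx and Tbx regions were nearly all higher after DMM in wild type (22 and 21, against 1 and 1 lower), as were 93.45% of all changed regions. In MUT DMM against WT sham, 26 of 37 Tbx regions were lower, against 40690 of all 71974 changed regions.

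Among the Irx genes, which pattern limb and heart, Irx1 had 9 higher regions, Irx2 had 5 and Irx5 had 3, with none lower. Irx4 had 5 higher and 1 lower. Among the Tbx genes, Tbx18, a factor of limb and heart mesenchyme, had 7 higher regions, all at a deposited distance of over 70 kb from the gene, and Tbx20, a heart factor, had 6. Tbx5 and Tbx15 had 2 each and Tbx4 had 1, all higher. Pax3, a factor of muscle progenitors, had 4 higher regions. Six4 had 2, Pax1 had 1, Nkx3-2 had 2, Lhx9 had 2, and Lhx2, Dlx2 and Dlx3 had 1 each, again all higher. Lhx5 had 1 in each direction, and Six2, a factor of kidney progenitors, 2 in each. Tbx2 had 1 lower region, and Pax9, Dlx5, Dlx6, Tbx3 and Irx3 had no changed region in this table. Over the 21 members with a role in limb, joint or skeleton, 41 of 44 changed regions were higher (93.2%). Over the other members 26 of 35 were (74.3%), against 93.45% of all changed regions.

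The changed regions rested on few reads, with medians per region of 0, 6 and 15 in the 3 WT DMM libraries and 8, 5 and 14 in sham. A higher region near a cartilage factor is that of Nkx3-2 at chr5:41758841-41759140, with 0, 8 and 13.5 normalized counts in the 3 WT DMM libraries, and 1.6, 4.29 and 2.39 in sham. The near-empty library stood at 0 and the other 2 above every sham library. At Tbx20 (chr9:24738001-24738380) the WT DMM libraries had 0, 14.7 and 19.8 and the sham libraries 4.16, 2.86 and 2.91, again with only the near-empty library below sham (adjusted p 0.000264 in the authors' deposited table). At Six2 (chr17:85682661-85682940) they had 0, 5.34 and 20.8 and 3.84, 2.15 and 1.88 (adjusted p 0.000307 in the same authors' deposited table). The third-listed WT DMM library carried most of the Six2 mean. The same held for Irx4 at chr13:73116241-73116440, with 0, 5.34 and 20.8 after DMM and 2.56, 2.15 and 2.39 in sham. The smallest adjusted p of a higher Lhx, Nkx or Dlx region fell to Lhx5 (chr5:120439741-120440020, 0, 13.3 and 19.8 against 1.92, 5.01 and 3.93), Nkx6-1 (chr5:101636761-101637040, 0, 8 and 18.7 against 2.24, 3.58 and 2.05) and Dlx3 (chr11:95116961-95117220, 0, 8 and 9.37 against 1.6, 3.58 and 1.54). In each of these 3 the near-empty library was at 0 and the other WT DMM libraries lay above sham.

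One higher region stood out from this form by its level and by separating in all libraries. At Pax3 (chr1:78132081-78132320, deposited distance 0) the WT DMM libraries had 31.4, 37.4 and 47.9 and the sham libraries 19.5, 25 and 18.8. No library of one group reached the other, although the 31.4 of the near-empty library is 2 reads. The means were 38.9 ± 8.38 (n = 3) and 21.1 ± 3.41 (n = 3), here and below ± SD. The adjusted p in the authors' deposited table was 0.000264, and limma's was 0.9999.

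Lower regions mostly had a deposited distance of 0 (10 of the 12, against 15 of the 67 higher ones). That distance also covers places just outside a gene's RefSeq bounds. Of all changed regions in this comparison, 1610 of 2833 lower and 18410 of 40407 higher ones had that distance. Lhx6, a LIM homeodomain factor of interneurons and tooth, had 0, 13.3 and 8.33 normalized counts after DMM and 35.2, 27.2 and 54.5 in sham at chr2:36103801-36104000. Its groups did not overlap, with means of 7.22 ± 6.74 (n = 3) and 39 ± 14 (n = 3). At Pax7 (chr4:139836101-139836480), a factor of muscle stem cells, the values were 0, 26.7 and 22.9 against 174, 45.1 and 28, so the first-listed sham library carried most of the sham mean. Pax2, a kidney and eye factor, had 31.4, 24 and 15.6 against 50.9, 47.2 and 65.3 at chr19:44815001-44815240. The lower Lhx5 region (chr5:120431021-120431220) had 31.4, 21.3 and 7.29 against 32.7, 31.5 and 51.8, where the 31.4 of the near-empty library, again 2 reads, lay just under the lowest sham library. These 4 were the lower regions in which all libraries separated.

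In the other 8 lower regions, among them 1 at Nkx2-5 and 1 at Six3, the libraries did not separate. At Tbx2 (chr11:85836961-85837240), a limb and heart repressor, the values were 0, 90.7 and 56.2 against 79.8, 80.8 and 86.6, with the second-listed WT DMM library above all sham libraries. The lower Irx4 region (chr13:73260721-73260940) had 0, 56 and 15.6 against 45.8, 50.8 and 50.2, and that of Six2 (chr17:85680941-85681140) had 0, 45.4 and 71.9 against 64.1, 73 and 66.8. At Irx4 the second-listed WT DMM library lay above every sham library, and at Six2 the third-listed lay within the sham range. At the Pax2 window chr19:44756581-44756780 overlaps, an inner start of the gene, the values were 0, 60 and 28.1 and 47.1, 45.1 and 49.2, and here too the groups overlapped. Nkx1-1 had 0, 5.34 and 9.37 against 49, 2.15 and 49.1 at chr5:33490761-33490980, where the second-listed sham library lay below 2 of the WT DMM libraries.

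Level and direction went together in this comparison. All 60 changed member regions with a sham mean of up to 4.22 normalized counts were higher, as were all such regions in the table. Above that level 7 of 19 member regions were higher (36.8%), against 73.8% of all changed regions above it. With a mean level of at least 10 over both groups, 25% of 16 changed member regions were higher. The sham mean is one of the 2 values compared, so level and direction are not independent measures.

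All libraries separated in 1 higher and 4 lower member regions, against 0.994% and 1.71% of all regions. With the near-empty library left out, separation held in 57 higher and 5 lower member regions, against 79.5% and 2.02% of all. limma called none of the 79 at an adjusted p under 0.05 (0.0161% of all regions) and none had an unadjusted p under 0.05, which 0.832% of all regions did. Without the near-empty library limma called 53 higher and 4 lower (75.9% and 1.87% of all). Leaving out the third WT DMM library turned 20 of the 67 higher member regions to lower and the share of higher ones fell from 84.8% to 59.5%, while that of all changed regions fell from 93.4% to 64.7%.

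**Figure D2:**
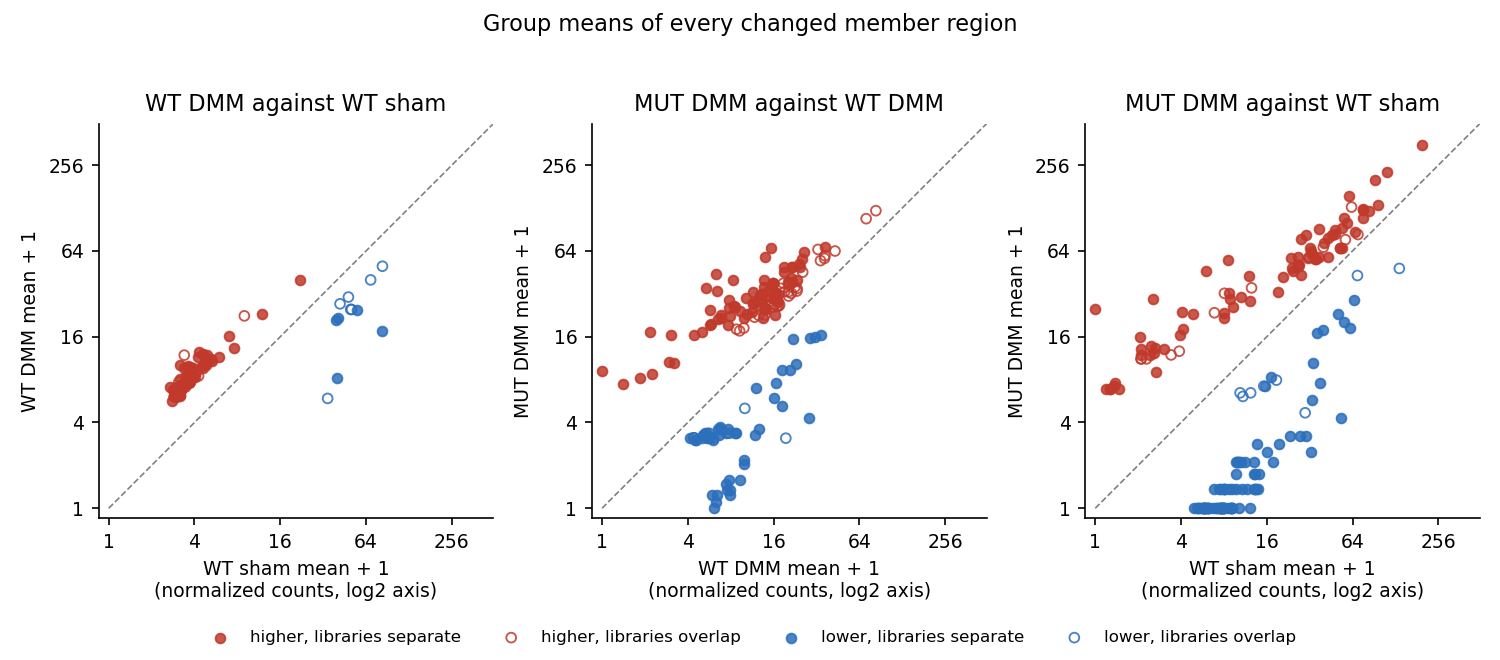
Group mean of every changed member region in the first-named group (vertical) against the second-named group (horizontal), in normalized counts plus 1 on log2 axes, with the line of equality dashed. Filled points are regions whose libraries separated once the near-empty WT DMM library was left out (62 of 79, 114 of 161 and 158 of 180). The points at the bottom of the right panel are the 40 regions in which both MUT DMM libraries were at 0.

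After DMM, mutant knees had more 5hmC than wild-type knees in most member regions, while most regions of the table had less. Higher regions numbered 106 of 163, in 42 genes, against 34.2% of all listed regions. Lower regions numbered 55, in 28 genes, against 64.7% of all. The share of higher regions among the changed was 83.3% of 30 in Pax, 73.9% of 23 in Nkx, 72.7% of 11 at Six-family genes, 65.0% of 20 in Lhx, 59.0% of 39 in Irx, 52.9% of 34 in Tbx and 50% of 4 in Dlx. Median levels in the higher regions were 29.2 normalized counts in the mutant against 13 in WT DMM, those in the lower ones 2.24 against 6.41. With the near-empty library left out, 65.2% of changed member regions were higher, against 65.8% with it.

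Pax2 had 11 higher and no lower region, and 1 more that was listed but not changed. Irx5 had 9 higher and 2 lower, Pax3 6 and 1, Pax7 5 and 2, and Irx2 5 and 1. Lhx4, a pituitary and motor neuron factor, had 4 and 2, Lhx2, a limb bud factor, 4 and 0, and Tbx4 3 and 1. Nkx3-2 and Nkx6-2 had 3 and 1 each, Tbx15 had 3 and 3, Tbx2 2 and 1, and Dlx2 1 and 1. Pax1, Dlx5 and Six4 had 1 higher region each. Regions with less 5hmC prevailed at Irx1 (3 higher, 7 lower), Tbx18 (4 and 6), Tbx5 (2 and 3) and Six2 (2 and 3), and Irx3 had 2 lower and Dlx6 1 lower. Lhx9 had 1 in each direction. Pax9, Tbx3 and Dlx3 had no region in this table. Over the 21 members with a role in limb, joint or skeleton, 45 of 77 changed regions were higher (58.4%), and over the other members 61 of 84 (72.6%).

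At Nkx3-2 there were 3 higher regions. The one over the printed promoter window (chr5:41764321-41764560) had 46.8 and 49.8 normalized counts in the MUT DMM libraries and 0, 32.3 and 29.2 in the WT DMM libraries. Its groups did not overlap, with means of 48.3 ± 2.1 (n = 2) and 20.5 ± 17.8 (n = 3) and an adjusted p of 0.000368 in the authors' deposited table. The other 2 had 30.7 and 28.4 against 0, 26.3 and 20.1, and 26.9 and 28.4 against 0, 21.8 and 12.2. In all 3 both mutant libraries lay above every wild-type library, with the near-empty one at 0. Without that library, the log2 ratio at the promoter window was 0.633, against 1.195 with it.

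The Six2 and Six5 windows shown above had the same order. At Six2 (chr17:85688181-85688400) the MUT DMM libraries had 35.1 and 42.7 and the WT DMM libraries 0, 24.1 and 14. At Six5 (chr7:19094181-19094580), a factor of the muscle and lens, they had 47 and 49.8 and 0, 39.1 and 14.6. Both separated, and the nearest wild-type library, the second-listed, was at 24.1 for Six2 and 39.1 for Six5. Inner starts of 3 more genes lay under higher regions. At Lhx6 (chr2:36103701-36104080) the values were 35.6 and 42.7 against 0, 12 and 9.74, the largest ratio of means of the 6, over 20 shared bases. At Lhx4 (chr1:155742241-155742460) they were 28.5 and 35.5 against 0, 20.3 and 11. At Pax2 (chr19:44755621-44755900) they were 36 and 60.4 against 19.1, 25.6 and 17.1, and here the near-empty library held 2 reads. All 6 promoter-window regions separated, with the near-empty library at 0 in all but that of Pax2. limma's adjusted p was 0.675 for each of them.

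**Figure D3:**
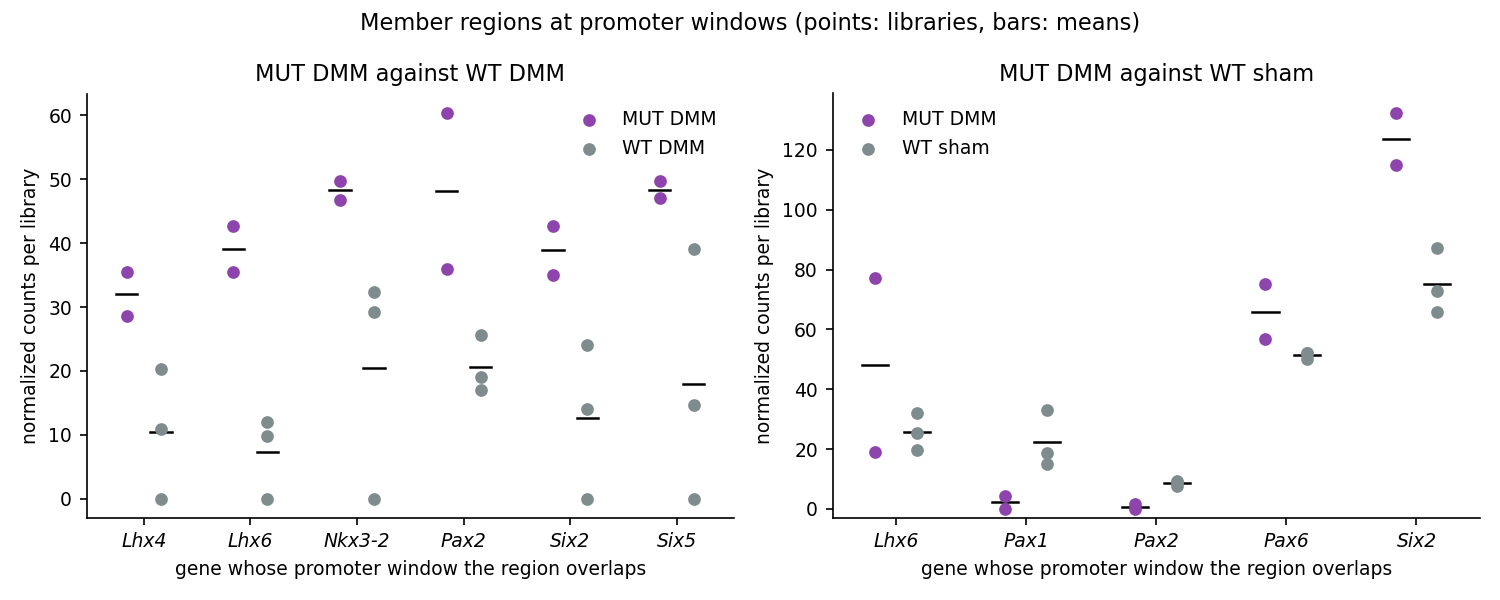
Normalized counts per library (points) and group means (bars) of the member regions that overlap a promoter window, in MUT DMM against WT DMM (left) and MUT DMM against WT sham (right), each on the scale of its own table. All 6 regions on the left were higher in both MUT DMM libraries than in every WT DMM library, and on the right Pax1 and Pax2 were lower and Six2 and Pax6 higher without overlap, while Lhx6 overlapped.

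Other higher regions of high level or small adjusted p lay mostly at a deposited distance of 0. Pax3 at chr1:78149561-78149940 had 22 and 64 in MUT DMM and 0, 4.51 and 11.6 in WT DMM (adjusted p 0.000118 in the authors' deposited table), with the mutant libraries far apart from each other. Pax7 at chr4:139821441-139821740 had 48 and 53.3 against 0, 45.9 and 23.7. Tbx4 at chr11:85917541-85917820, at a deposited distance of 445 bases, had 24.3 and 32 against 0, 10.5 and 9.74 (adjusted p 5.64e-05 in the authors' deposited table). In these 3 both mutant libraries lay above all wild-type ones, with the near-empty one at 0. The same held for Tbx1 at chr16:18588001-18588380, with 54.1 and 56.9 against 0, 42.1 and 31.1, and for Lhx4 at chr1:155742881-155743340, with 62.5 and 60.4 against 0, 51.9 and 23.1. Pax2 had 2 of the 5 higher regions of highest level among the separated ones, with 51.9 and 81.8 against 38.2, 43.6 and 25 at chr19:44756981-44757280 and 43.3 and 88.9 against 0, 20.3 and 22.5 at chr19:44726021-44726540. Dlx2, an inhibitory neuron and jaw factor, overlapped, with 26.9 and 21.3 against 0, 24.1 and 14.6 at chr2:71545921-71546120.

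Most lower regions held few reads in the mutant. At Pax4, a pancreatic islet factor, the values were 1.17 and 0 against 9.56, 6.77 and 8.52 (chr6:28446281-28446640), without overlap, where the 9.56 of the near-empty library is 1 read. At Nkx6-1, another islet and neural factor, chr5:101678541-101678820 had 2.34 and 0 against 9.56, 4.51 and 12.8, also without overlap. A value of 3.55 in the shallower mutant library is a single read, and this was its value at Lhx1 (0.940 and 3.55 against 0, 9.03 and 7.91, chr11:84521061-84521440), at Irx1 (1.17 and 3.55 against 0, 3.76 and 19.5, chr13:72049221-72049480) and at the lower Six2 and Dlx2 regions. With the third WT DMM library left out, the means of the Irx1, Six2 (chr17:85682661-85682940) and Dlx2 (chr2:71620461-71620740) regions turned to the other direction, with log2 ratios of 0.22, 0.32 and 0.55. Tbx18 at chr9:87489001-87489380 had 4.91 and 3.55 against 0, 21.1 and 31.1, with only the near-empty library below the mutant.

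Lower regions with more reads and no overlap were found at Tbx5 (chr5:119773261-119773600), with 16.6 and 14.2 against 57.4, 20.3 and 21.9, and at Pax3 (chr1:78196981-78197340), with 15.7 and 14.2 against 47.8, 18.1 and 25.6. In both, the near-empty library was the highest of the wild type, with 6 and 5 reads. Tbx15, which shapes limb and skull cartilage, had 2 lower regions without overlap at the gene, chr3:99257661-99257920 with 6.08 and 10.7 against 19.1, 17.3 and 15.8 and chr3:99256801-99257000 with 6.08 and 7.11 against 28.7, 9.03 and 9.13. The near-empty library was again the highest of the wild type in both. Without it the log2 ratio went from -0.975 to -0.907 at the former and from -1.13 to -0.408 at the latter. Both lower Tbx15 regions lay within 2 kb of a higher one, chr3:99256381-99256680, with 39.8 and 35.5 against 0, 25.6 and 31.7. Nkx6-1 at chr5:101658461-101658700 had 11 and 17.8 against 19.1, 24.1 and 19.5.

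The Irx genes form an Irx1, Irx2 and Irx4 cluster on chromosome 13 and an Irx3, Irx5 and Irx6 cluster on chromosome 8. On chromosome 13 there were 10 higher and 10 lower regions, with median levels of 9.94 in MUT DMM and 6.91 in WT DMM. On chromosome 8 there were 13 higher and 6 lower, with medians of 8.24 and 4.39. The Irx5 region at chr8:92416381-92416800, past the gene by a deposited distance of 54 kb, had the smallest adjusted p of all members in this table (5.29e-06 in the authors' deposited table). It had 9.36 and 7.11 normalized counts in MUT DMM and 0 in all 3 WT DMM libraries. These are 40 and 2 reads in the mutant libraries. The WT DMM group had none, a limit of 3 reads over the group. Farther past the gene, chr8:92507581-92507960 had 7.72 and 24.9 against 0, 2.26 and 1.22. At a deposited distance of 0 from Irx5, 5 regions were higher. One of them, chr8:92355821-92356040, just before the gene's RefSeq bounds, had 32.1 and 28.4 against 0, 24.1 and 11.6. Without the chromosome 8 genes 65.5% of changed member regions were higher.

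**Figure D4:**
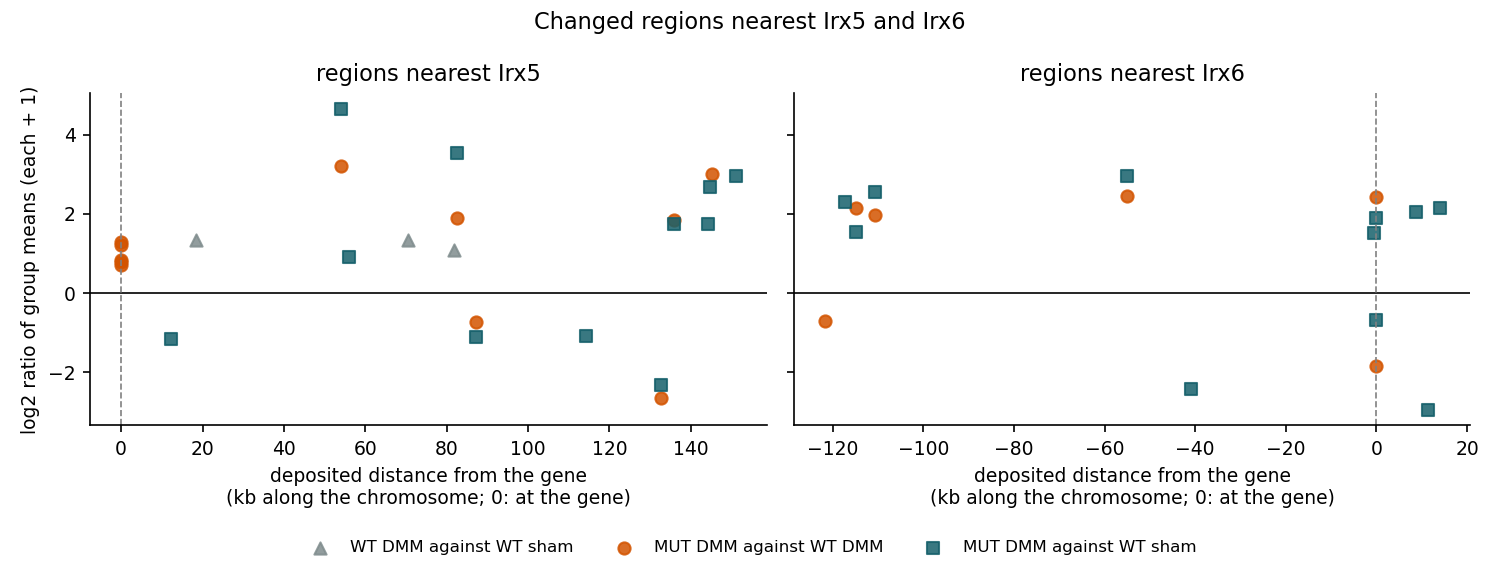
Log2 ratio of group means (each plus 1 normalized count) of the changed regions nearest to Irx5 (left) and Irx6 (right), by the deposited distance from the gene in kb along the chromosome. From 53.9 to 151 kb past Irx5, MUT DMM was higher in most regions against both WT groups, with log2 ratios of up to 4.65, and lower regions lay among them.

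By level, the gap between member regions and all changed regions ran through all 4 bins of equal size by the WT DMM mean. The shares higher were 41.2%, 48.7%, 85.5% and 78.8% of member regions from the lowest to the highest bin, against 15.6%, 17.8%, 54.1% and 51.1% of all changed regions. Without chromosome 8 genes the member shares were 25%, 51.4%, 88.2% and 76.7%, so that of the lowest bin was smaller. By position, 76.1% of the 92 member regions at a deposited distance of 0 were higher, against 36.6% of all such regions, and 48.2% of the 56 member regions beyond 10 kb, against 33.7% of all.

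Libraries separated in 67 higher and 20 lower member regions, against 22.9% and 18.5% of all regions. Without the near-empty library they separated in 69 higher and 45 lower, against 24.1% and 52.9% of all. limma called none of the 163, as of all regions (0%), and 8 had an unadjusted p under 0.05, 3 of them higher, where 4.35% of all regions did, so the member count was near that of the whole table. Without the near-empty library limma called 12 higher and 6 lower member regions (5.84% and 9.88% of all). With the third WT DMM library left out, 72.7% of changed member regions were higher against 53.5% of all. The 2 listed but unchanged regions were at Lhx5 (28.8 and 17.8 against 0, 22.6 and 9.74) and Pax2 (49.8 and 28.4 against 0, 27.8 and 28).

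**Figure D5:**
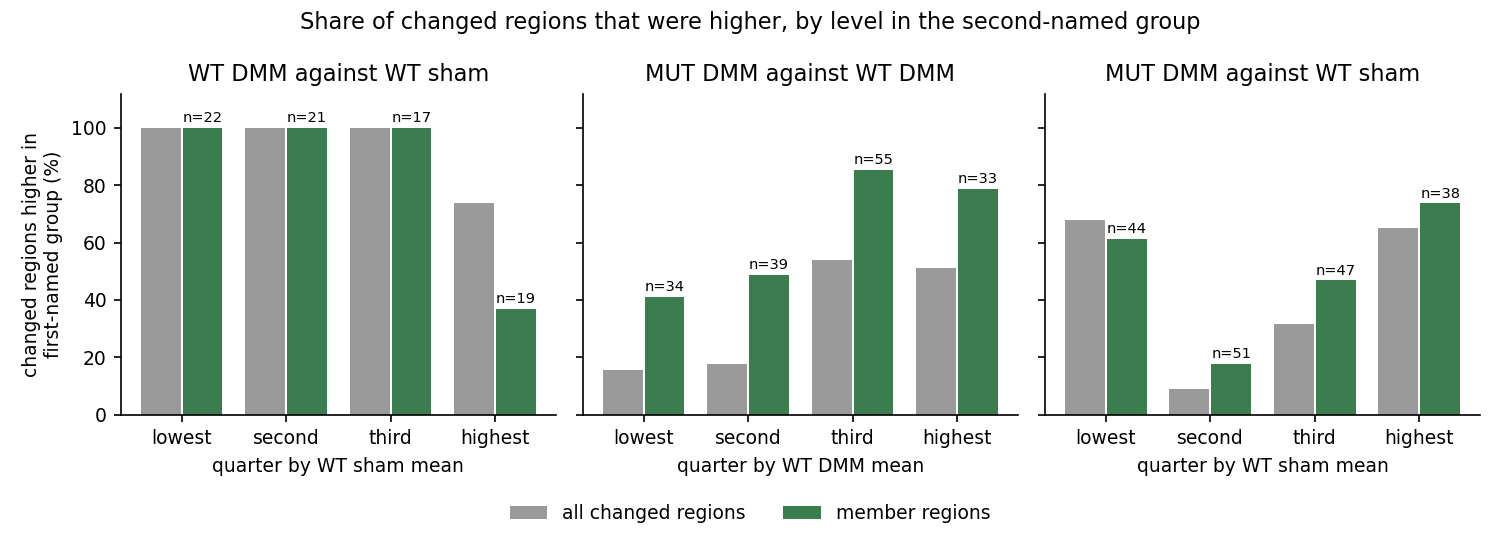
Share of changed regions that were higher in the first-named group, for all changed regions (grey) and member regions (green, with their number), in 4 bins of equal size of all changed regions by the mean of the second-named group. In MUT DMM against WT DMM the member share lay above that of all changed regions in each bin, and in WT DMM against WT sham it lay below it in the highest bin (36.8% against 73.8%).

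Against wild-type sham, mutant knees after DMM had more 5hmC at some member regions and less at others, in shares near those of the whole table. These groups differ in both genotype and surgery, whose parts cannot be told apart here. Higher regions numbered 86 of 181, in 34 genes, against 43.2% of all listed regions, and lower regions 94, in 40 genes, against 56.1%. Higher regions had medians of 47.8 normalized counts in MUT DMM and 23.1 in sham. Not all were well marked in sham, since 27 of them had a sham mean of up to 5.46. Lower ones had medians of 0.370 in the mutant and 8.69 in sham. In 40 of the 94 both MUT DMM libraries were at 0, as in 15289 of the 40690 lower regions of the whole table. In this comparison 1 read of the shallower MUT DMM library is worth 9.45 normalized counts, above that sham median. A 0 in that library therefore sets no limit below that value. In Tbx 26 of 37 changed regions were lower, in Irx 27 of 56, in Pax 14 of 33, in Lhx 9 of 19, in Nkx 8 of 17, at Six-family genes 6 of 12 and in Dlx 4 of 6.

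Irx1 had 7 higher and 8 lower regions, Pax3 had 6 and 4, and Irx5 had 7 and 4. Tbx5 had 3 and 5, Irx2 2 and 4, Tbx18 1 and 4, and Nkx1-1, a neural factor, 1 and 3. Lhx5 had 4 higher only, and Tbx15 had 3 and 1. Nkx3-2 had 2 higher and 1 lower, Lhx6 and Six2 had 2 in each direction, and Six4 and Tbx3 had 1 in each. Pax9, a partner of Pax1 in the spine, had 2 higher, and Irx3 1 higher. Lower regions prevailed at Lhx2 (1 higher, 2 lower), Lhx9 (1 and 2), Dlx3 (1 and 2) and Tbx4 (0 and 2), and Pax1 and Dlx5 had 1 lower region each. Tbx2 and Dlx6 had none. Over the limb, joint and skeleton members 38 of 80 changed regions were higher (47.5%), and over the others 48 of 100 (48.0%).

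The highest level of any named member region was at Tbx5 (chr5:119905061-119905500), past the gene by a deposited distance of 19 kb. It had 363 and 340.1 normalized counts in MUT DMM and 183, 278 and 123 in sham. Both mutant libraries lay above every sham library, with means of 352 ± 16.2 (n = 2) and 195 ± 77.9 (n = 3). Within the same stretch a lower region partly overlapped it (chr5:119905321-119905540), with 0 in both mutant libraries and 8.48, 8.1 and 3.88 in sham. At Nkx3-2 (chr5:41761521-41761880) the values were 116 and 283 against 79.5, 97.3 and 96, at Nkx2-5, a heart factor, 81.7 and 227 against 76.4, 48.6 and 52.4 (chr17:26844261-26844540), and at Pax3 124 and 142 against 88, 96.1 and 105 (chr1:78216821-78217020). In all 3 the mutant libraries lay above sham, those of Nkx3-2 and Nkx2-5 more than 2-fold apart from each other.

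The higher regions with the smallest adjusted p of their families were mostly separated ones. Tbx15 at chr3:99256401-99256680 had 122 and 94.5 against 74.8, 71.8 and 78.2 (adjusted p 2.05e-06 in the authors' deposited table), a 1.45-fold difference in means. Pax7 at chr4:139823881-139824180 had 82.5 and 85 against 49.9, 39.4 and 53, and Six4 at chr12:73110821-73111060 had 137 and 104 against 63.6, 101 and 84.1. Nkx1-1 at chr5:33511061-33511260 had 22.1 and 18.9 against 4.24, 8.1 and 8.88. None of these 4 overlapped, and limma's adjusted p was 0.107, 0.0535, 0.141 and 0.0748 in that order. The higher Dlx3 region (chr11:95127961-95128200) overlapped, with 1.47 and 18.9 against 1.59, 1.16 and 0.550, where the 18.9 of the shallower mutant library is 2 reads.

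Promoter windows went both ways. At Six2 the region over the printed window (chr17:85688221-85688420) had 115 and 132 in MUT DMM and 65.8, 72.9 and 87.1 in sham, without overlap. A Pax6 inner start, in an eye and islet factor gene, had 75.1 and 56.7 against 52, 52.1 and 50.2 (chr2:105682161-105682420), also without overlap. At Lhx6 (chr2:36104561-36104840) the deeper mutant library was above and the shallower below every sham library (77.3 and 18.9 against 19.6, 25.5 and 31.9), and without the deeper one the log2 ratio was -0.42. The Pax2 window printed above, without CCGG, overlapped chr19:44746121-44746400, with 1.47 and 0 against 9.01, 9.26 and 7.77 and a limma adjusted p of 0.0150. All these sham values lay under the 9.45 normalized counts that 1 read of the shallower mutant library is worth. The 0 of that library thus sets no limit below them. An inner start of Pax1 (chr2:147364981-147365220, 13 shared bases) had 4.42 and 0 against 18.6, 15.1 and 33, with means of 2.21 ± 3.13 (n = 2) and 22.2 ± 9.52 (n = 3), a limma log2 difference of -3.24 with an SE of 0.89 and an adjusted p of 0.0308. At both Pax genes the mutant libraries lay below all sham libraries.

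Of the lower regions, Nkx2-5 (chr17:26840121-26840540) had the smallest adjusted p (2.62e-06 in the authors' deposited table), with 4.42 and 0 in MUT DMM and 22.3, 30.1 and 26.9 in sham. It lay 4 kb from the higher Nkx2-5 region given above. limma gave it a log2 difference of -3.55 with an SE of 0.84 (adjusted p 0.0193). The limma fit took only regions that the authors had already selected on these values, so its calls are no independent support. Irx1 at chr13:72028641-72029020 had 4.42 and 0 against 48.8, 16.2 and 22.8 (limma adjusted p 0.0266). At Lhx2 (chr2:38313301-38313580) and Tbx20 (chr9:24849901-24850280) both mutant libraries were at 0, with 5.83, 16.2 and 5.55 and 6.89, 17.4 and 9.43 in sham and limma adjusted p of 0.00688 and 0.00447. Of these sham values, only 16.2 and 17.4 lay above the 9.45 that 1 read of the shallower mutant library is worth. No fold is given where a group is at 0.

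For Pax7 (chr4:139773681-139773940) and Dlx3 (chr11:95121141-95121340), the first-listed sham library alone made the gap wide, with 2.95 and 0 against 81.7, 4.63 and 8.04 and 0.740 and 0 against 33.4, 3.47 and 1.94. The libraries separated, but limma's adjusted p was 0.101 and 0.0966.

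Among the 5 separated lower regions of highest level, the 2 mutant libraries lay apart in 4. At Dlx5 (chr6:6878241-6878440) they had 46.4 and 9.45, with 64.7, 60.2 and 69.6 in sham. At Pax8, a thyroid and kidney factor, chr2:24435601-24436120 had 34.6 and 0 against 61, 55.6 and 64.6, at Irx4 (chr13:73257761-73258000) 44.2 and 0 against 47.7, 46.3 and 54.4, and at Six2 (chr17:85683401-85683780) 38.3 and 0 against 51.4, 59 and 53.5. In the last 3 the shallower mutant library was at 0, where 1 of its reads is worth 9.45 normalized counts. At Irx5 (chr8:92374641-92374960) both mutant libraries were read, with 14.7 and 18.9 against 29.2, 39.4 and 47.7. All 5 separated, and limma called none of them at 0.05 (adjusted p from 0.0590 at Irx5 to 0.138 at Irx4).

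In the Irx cluster on chromosome 13 there were 13 higher and 20 lower regions, with medians of 2.21 in MUT DMM and 8.81 in sham, and on chromosome 8 there were 16 higher and 7 lower, with medians of 22.3 and 6.98. The difference between the clusters was not tested. The Irx5 region at chr8:92416381-92416800 again had the smallest adjusted p of all members (2.48e-07 in the authors' deposited table), with 29.5 and 18.9 in MUT DMM and 0 in all 3 sham libraries. limma's log2 difference was 4.62 with an SE of 0.38 (adjusted p 0.00203). Without chromosome 8 genes 45.2% of changed member regions were higher. One further Irx5 region (chr8:92388361-92388700) was listed but not changed, with 70 and 66.1 against 51.4, 55.6 and 46.3.

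Level and position split the directions. From the lowest to the highest of 4 bins by sham mean, 61.4%, 17.6%, 46.8% and 73.7% of member regions were higher, against 68.0%, 8.84%, 31.7% and 65.2% of all changed regions. Without chromosome 8 genes the member shares were 51.4%, 9.30%, 46.5% and 82.4%, so that of the next-to-lowest bin was near the whole table's. At a deposited distance of 0, 54.2% of 72 member regions were higher, against 36.7% of all such regions, and beyond 10 kb 43.2% of 88, against 54.1% of all. The share of higher member regions was 53.6% of 84 within 5 kb of the gene's RefSeq bounds, and 74.7% of the 87 with a mean level of at least 10.

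Libraries separated in 72 higher and 86 lower member regions, against 32.5% and 49.1% of all regions. limma, with 2 MUT DMM and 3 sham libraries, called 22 higher and 72 lower member regions (8.19% and 39% of all). In this comparison, whose regions the authors had already selected, 60.4% of all regions had an unadjusted limma p under 0.05. With a mean level of at least 10 normalized counts limma called none. Without 1 sham library at a time it called 61, 56 and 57 in their listed order.

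Some member regions were listed in 2 tables, at the same place by at least 1 base. Comparisons that share libraries are not independent, and a shared library alone can set a direction, so the means are given side by side without a test. WT DMM against WT sham and MUT DMM against WT DMM, which share the WT DMM libraries, had 13 such pairs, 16.5% of the member regions of the former and 7.98% of the latter. At the lower Lhx6 region WT DMM had a mean of 7.22 normalized counts against 39.0 in sham, and on the other scale 7.26 against 39.1 in MUT DMM. At the Six2 region starting at 85690261 they were 23.8 after DMM and 49.7 in sham, and on the other scale 32.6 in MUT DMM and 13.6 in WT DMM. So WT DMM had the lowest mean at both sites, each on the scale of its own table, with the near-empty library counted in. At this Six2 site the WT DMM and sham libraries did not separate. At the Tbx18 region starting at 87489101 the means were 15.2 after DMM and 5.99 in sham, and on the other scale 4.23 in MUT DMM and 17.4 in WT DMM. Irx1 at 71884741 had 21.4 and 7.95, and on the other scale 3.29 and 27.4, where the WT DMM libraries had 0, 15.8 and 66.4. At these 2 sites WT DMM had the highest mean in its tables, but the libraries did not separate in either table.

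WT DMM against WT sham and MUT DMM against WT sham, which share the sham libraries, had 6 pairs (7.60% and 3.31% of their member regions). Of these, 2 were higher in both tables and 1 was lower in both. The other 3, at Pax3 (78049721), Irx1 (71884741) and Irx4 (73116241), were higher in WT DMM but lower in MUT DMM. The Pax3 region that separated after DMM had 54.5 and 56.7 in MUT DMM and 32.4, 40.5 and 30.5 in sham, higher in both tables. The lower Pax7 region had means of 47.3 in MUT DMM and 135.3 in sham, with the first-listed sham library at the top of 287, 72.9 and 45.5. The tables that share the MUT DMM libraries had 30 pairs, covering 17.2% and 16.6% of their member regions. Among them was Irx6 at 92615761, before the gene, with means of 15.5 in the mutant against 2.03 in WT DMM, then 45.4 against 5.00 in sham. At the Irx6 region starting at 92671941, just before the gene's RefSeq bounds, the means were 6.48 and 0.407, and on the other scale 31.5 and 7.69. Both Irx6 regions were higher in the mutant in each table.

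Cofactors and neighbouring homeodomain factors of these families were counted by the same rule. The list holds 39 genes, among them Eya and Dach partners of Six-family proteins, Ldb and Lmo partners of Lhx proteins, Pbx and Meis cofactors, and limb factors such as Pitx1, Shox2, Prrx1 and Msx1. In WT DMM against WT sham 33 of them had 127 higher and 11 lower regions (92.0% higher, against 93.4% of all changed regions). In MUT DMM against WT DMM 35 had 71 higher and 119 lower (37.4% higher, against 34.6%), and in MUT DMM against WT sham 37 had 106 and 115 (48.0% higher, against 43.5%). These shares lay near those of the whole tables. Lmo4 had 12 higher and no lower region after DMM in wild type, and 3 higher and 11 lower in MUT DMM against WT DMM. Pitx1, the hindlimb factor, had no changed region in the first table, 5 higher and 7 lower in the second, and 1 and 10 in the last. Shox2, a limb and joint factor, had 4 and 0, 3 and 5, and 7 and 0.

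Markers of the tissue and of other cells the dissection could hold were counted by nearest gene too. A DNA mark gives no level of a cell type, and in bulk tissue a change of the mark within cells and a change in the mix of cells cannot be told apart. Changed regions in the 3 tables, in their order above, lay nearest to 6, 9 and 10 of 12 cartilage markers, 5, 8 and 8 of 13 skeletal muscle markers, 7, 6 and 6 of 10 blood markers, 4, 5 and 5 of 5 endothelial markers, and 3, 3 and 3 of 4 adipocyte markers. In WT DMM against WT sham 16 of 18 cartilage, 10 of 12 muscle, 8 of 9 blood, 17 of 21 endothelial and 5 of 5 adipocyte marker regions were higher, against 93.4% of all changed regions. In MUT DMM against WT DMM these were 12 of 30, 10 of 18, 2 of 10, 10 of 39 and 0 of 6, against 34.6%. In MUT DMM against WT sham they were 17 of 35, 17 of 36, 8 of 16, 9 of 36 and 4 of 7, against 43.5%. The part of any other cell type in the member results was not tested.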

How the data were processed

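5hmC was read by reduced representation hydroxymethylation profiling (RRHP), in which DNA is cut with MspI at CCGG, glucosylation protects 5hmC-bearing sites from a later MspI digest, and the surviving fragments are amplified and sequenced. The submitters' processing notes name HISAT2 2.1.0, Trim Galore 0.5.0, bcl2fastq 2.20.0, bedtools, SAMtools and the build mm10. Not given in the sources used here are the program that called regions, the scaling and the test behind the p-values.

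The authors deposited 3 tables of differential regions with a normalized count signal per library, a p-value and an adjusted p-value for the whole region, the nearest gene and its distance. Within a library the deposited signal values were whole multiples of 1 step, to a tolerance of 0.02, which gave reads per region. Count models were not run, since the listed regions are a selected subset. The limma fits used this same subset, so their calls are not independent of the authors' selection. PCR reads carry no molecular identifiers, so read numbers speak of counting only.

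Direction was taken from group means over distinct libraries. limma 3.58.1 (R 4.3.3) was fitted on log2(value + 1) over each whole table with a trended prior and Benjamini-Hochberg adjustment at 0.05. The code was also run on simulated data with the same spread in every library and no near-empty or shallow one. Such data cannot show how limma performs on the libraries used here. Regions were named by these rules: the smallest authors' adjusted p per table, family and direction, the 5 highest mean levels per table and direction among separated regions, and any overlap with a promoter window. Further regions of Nkx3-2, Tbx5, Tbx15, Irx1, Irx5, Irx6, Six2, Tbx18, Pax3 and Pax7, and the unchanged regions, were chosen after their values were seen. Results of 1 member gene are not reported here by name. Members and lists were chosen with earlier results of these data known. Sequences are RefSeq's, on GRCm38.p6, the assembly that mm10 names. Alternatives were a threshold of 0.01, regions within 5 kb of the gene, a mean level of at least 10, pseudocounts of 0.5 and 5, the 3 deposited entries per group, and leaving out each library.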

Additional observations from a re-analysis of the deposited data

How the results depend on the processing

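With only regions within 5 kb of the gene's RefSeq bounds, changed member regions numbered 31 (64.5% higher) in WT DMM against WT sham, 102 (75.5% higher, 57 separated) in MUT DMM against WT DMM and 84 (53.6% higher, 73 separated) in MUT DMM against WT sham, so the last share crossed 50%. With a mean level of at least 10 normalized counts, the first comparison kept 16 regions, 25% of them higher, the second had 89.0% higher, and the last had 87 regions, 74.7% higher and 73 separated, of which limma called 0 (fewer regions tested). The cause of these shifts was not tested. Leaving out 1 library at a time, the share higher ran from 59.5% to 84.8%, from 65.2% to 72.7% and from 46.7% to 48.3% in the 3 comparisons. Separated regions ran from 6 to 62, from 89 to 117 and from 160 to 170, and limma's calls from 0 to 57, from 0 to 18 and from 56 to 139. The highest values in the first comparison, and of limma in the second, came without the near-empty WT DMM library. Where 1 MUT DMM library was left, limma assumed that it varies like the other group. Of the 70 named regions, the directions of 4 turned when 1 library was left out: without the third-listed WT DMM library Irx1, Six2 and Dlx2 in MUT DMM against WT DMM (log2 ratios from -2.01 to 0.22, -1.84 to 0.32 and -1.72 to 0.55 over all libraries left out), and without the deeper MUT DMM library Lhx6 in MUT DMM against WT sham (-0.42 to 1.56). A threshold of 0.01, both other pseudocounts and the 3 deposited entries per group changed none of the counts or shares by over 1.5 times. No paired analysis was possible because the columns that hold the libraries carry no replicate numbers. WT sham and WT DMM knees may come from the same mice, which the fits do not take into account.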
